A study of Mus musculus with 18 samples.

Results

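The genes described here write, read or help to place methyl groups on lysine 36 of histone H3 (H3K36). They are Setd2, Nsd1, Whsc1, Whsc1l1, Ash1l, Iws1, Supt6 and Psip1, chosen by gene symbol, and all 8 were present among the 13973 genes of the count table. They were followed in polysome RNA-seq of brain slices from male C57BL/6N mice at postnatal day 28 to 35 that were wild type (WT) or carried a knockout of Fmr1 (KO), a line crossed onto C57BL/6. Fmr1 encodes FMRP, the RNA-binding protein lost in fragile X syndrome. Slices of 400 µm through hippocampus and cortex were kept for 30 min at 30 °C in 20 µM homoharringtonine (HHT) or in its DMSO vehicle. HHT is a drug that stops newly assembled ribosomes from leaving the start codon and lets elongating ones finish. Each replicate pooled 10 slices from 2 to 3 mice, and its cleared lysate gave 3 libraries, namely the lysate itself (input) and the medium and heavy polysome pools of its sucrose gradient. There are 12 groups among the 18 libraries, by genotype, treatment and fraction. Those with HHT (6 groups) have 2 replicates, and those with vehicle (6 groups) have 1, so the libraries come from 6 lysates.

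Trimethylation of H3K36 is laid over the bodies of transcribed genes by SETD2, which travels with elongating RNA polymerase II. NSD1, NSD2 (the product of Whsc1), NSD3 (Whsc1l1) and ASH1L add the lower methylation states, and all these writers share a catalytic SET domain. IWS1 and SPT6 (Supt6) ride on the same polymerase and, in human cells, help bring SETD2 to it, while PSIP1 (LEDGF) reads methylated H3K36 through its PWWP domain. In people, variants in SETD2, NSD1 and ASH1L cause neurodevelopmental conditions.

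The coding sequences around the catalytic core are shown because the writers are paralogs, and reads from a shared stretch could be counted for the wrong gene. Each line gives 63 coding bases read from mm10 with the GENCODE M21 annotation, and the 21 capitals encode the 7 residues of the SET motif that starts with asparagine and histidine and ends with proline and asparagine.
Setd2: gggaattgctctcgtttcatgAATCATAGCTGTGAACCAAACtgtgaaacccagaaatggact
Nsd1: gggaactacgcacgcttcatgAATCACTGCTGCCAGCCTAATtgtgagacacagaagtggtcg
Whsc1: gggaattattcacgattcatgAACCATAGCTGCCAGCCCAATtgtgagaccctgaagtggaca
Whsc1l1: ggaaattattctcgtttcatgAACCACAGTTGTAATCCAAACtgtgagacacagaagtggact
Ash1l: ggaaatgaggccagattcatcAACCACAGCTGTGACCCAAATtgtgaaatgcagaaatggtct
Between pairs of these stretches 69.8% to 82.5% of bases were identical, the closest being Setd2 and Whsc1l1. The stretch lies at coding bases 4783 to 4845 of Setd2 and 6613 to 6675 of Ash1l.

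The genes are spread over separate chromosomes, at chr9:110532597-110618633 for Setd2, chr13:55209782-55318325 for Nsd1, chr5:33820725-33897975 for Whsc1, chr8:25601601-25719667 for Whsc1l1, chr3:88950622-89079375 for Ash1l, chr18:32067741-32104328 for Iws1, chr11:78206746-78245987 for Supt6 and chr4:83455680-83486459 for Psip1 (mm10). Supt6 and Psip1 lie on the minus strand and the others on the plus strand. Annotated genes overlap Whsc1 (Nelfa), Ash1l (Dap3), Supt6 (Sdf2) and Psip1 (Snapc3), and predicted genes overlap Setd2, Nsd1, Whsc1l1 and Ash1l. The sources used here do not state whether counting used strand. Reads in those overlaps therefore cannot be assigned with certainty.

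Estimated counts totalled 6226237 to 13834652 per library, and the 8 genes held from 124.6 counts (the lowest library of Iws1) to 7236 (the highest of Supt6). Every library was made from 200 ng of RNA, so each value is relative to the other RNA in that fraction and not an amount. CPM are counts scaled to a common total after TMM, the trimmed-mean scaling of edgeR. Fmr1 lay at 4.62 to 8.53 CPM in the KO libraries and 13.9 to 32.2 CPM in the WT libraries, without overlap. The lowest value in the length-normalised table was 0.772 to 0.904 in the 6 libraries of HHT replicate 2, against 1.00 to 1.04 in all others. The libraries of HHT replicate 2 therefore stand apart in that measure. HHT against vehicle was also fitted with HHT replicate 1 alone, and no call among the 8 genes changed. The ratio, shift and KO comparisons were not fitted without both replicate 2 lysates, only without each lysate in turn. In bulk tissue, fewer cells of a type and less RNA per cell cannot be told apart.

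Per length, in the score the authors call TPM (rescaled TPM here), Psip1 and Supt6 had the highest levels of the 8 genes, with means over 18 libraries of 216 and 204. Psip1 lay above Supt6 in all input and medium libraries but in only 1 of 6 heavy libraries. The writers followed at 55.7 for Whsc1l1, 38.7 for Nsd1, 30.5 for Ash1l, 28.0 for Whsc1 and 22.4 for Setd2. Supt6 lay above Whsc1l1 in 18 of 18 libraries. Nsd1 lay above Ash1l in 17 of 18. Whsc1l1 lay above Nsd1 in 13 of 18, and not in 5 of the heavy libraries. Ash1l and Whsc1 did not separate, since Ash1l was the higher in 5 of 18 libraries. Iws1 had the lowest mean, 7.82, below Setd2 in 18 of 18. By this mean Psip1 sat at percentile 93.5 of all genes and Iws1 at 27.1.

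**Figure D1:**
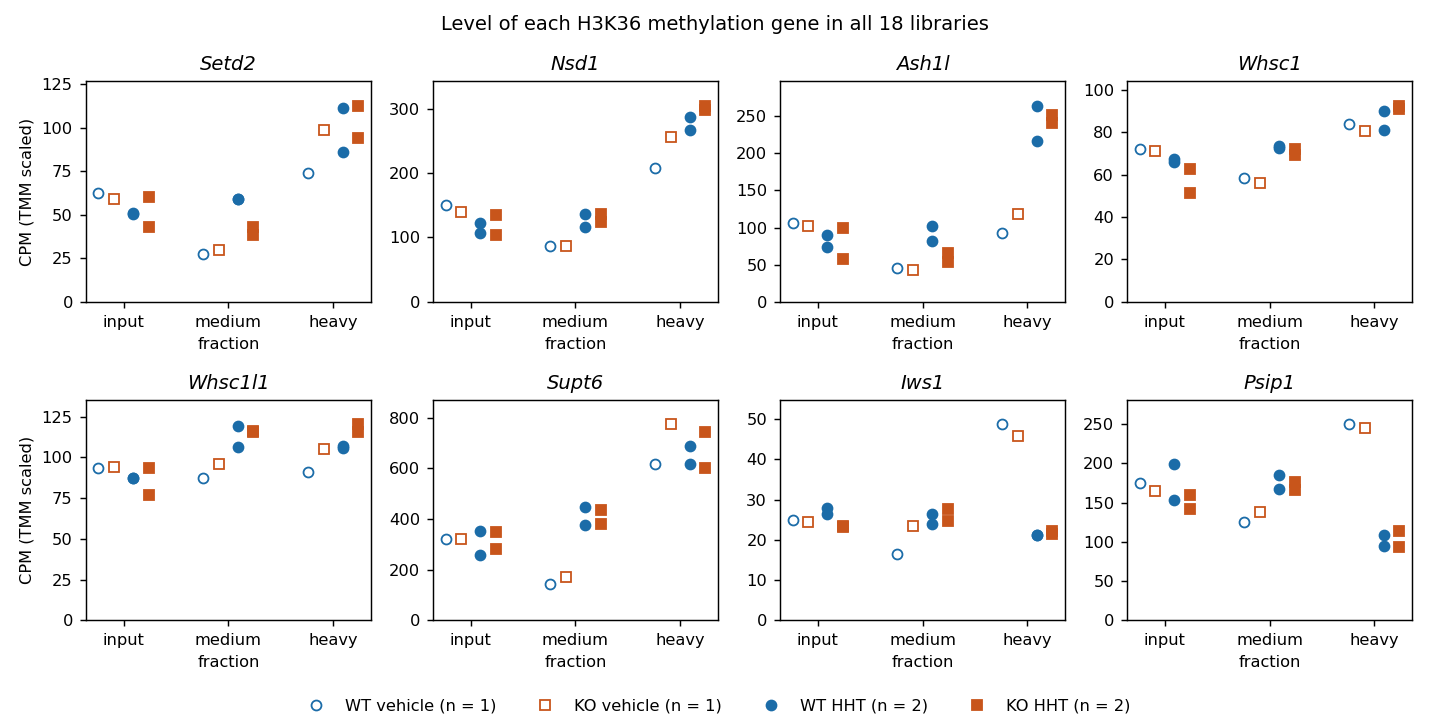
Level of each gene in TMM-scaled CPM (vertical axes, starting at 0) in input, medium and heavy libraries; each point is 1 library, open symbols vehicle, filled symbols HHT, circles WT and squares KO. Setd2, Ash1l and Supt6 dip in the medium fraction of vehicle slices, and Iws1 and Psip1 are lower in heavy libraries after HHT than in heavy vehicle libraries.

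The comparison of polysome fractions with lysate in vehicle slices asks where these mRNAs sit when initiation goes on. Setd2 held 62.5 CPM in WT and 58.9 in KO input. Its medium libraries had 27.3 and 29.9 and its heavy libraries 73.6 and 98.9. Its medium libraries were the lowest and its heavy libraries the highest, without overlap between fractions. Such separation was common in vehicle slices. Of all genes, 31.7% lay lower in medium than in input without overlap. For heavy, 38.8% lay above input and 37.0% above medium in this way. Ash1l, a writer of the trithorax group, held 106 (WT) and 102 (KO) CPM in input, then 45.7 and 43.4 in medium, while heavy had 92.3 and 118. Its medium libraries lay below all others, and its heavy and input libraries overlapped. Supt6 held 323 (WT) and 322 (KO) CPM in input, then 144 and 170.5 in medium, while heavy had 616.5 and 775, the widest spread between fractions of the 8.

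Between medium and input, 4 of the 8 genes fell in vehicle slices, beside 19.7% of all genes called (10.2% higher and 9.5% lower). Ash1l fell by 1.23 ± 0.23 on the log2 scale (± SE; adjusted p = 0.00558 by edgeR's quasi-likelihood test with Benjamini-Hochberg adjustment over 13973 genes, as for every adjusted p here). Setd2 fell by 1.09 ± 0.19 (adjusted p = 0.00458). Supt6 fell by 1.04 ± 0.18 (adjusted p = 0.00461) and Nsd1 by 0.73 ± 0.15 (adjusted p = 0.00732). The changes of Psip1 (-0.37 ± 0.16), Iws1 (-0.33 ± 0.15), Whsc1 (-0.32 ± 0.13) and Whsc1l1 (-0.03 ± 0.13) did not pass. The median of the 8 was -0.55, against 0.01 over all genes. With the lysate as a block Psip1 passed too (adjusted p = 0.0419), which makes 5 genes. In KO libraries alone 0 of the 8 passed, at -0.98 for Setd2 and -1.23 for Ash1l. In WT libraries alone these 2 genes stood at -1.19 and -1.22. There is 1 vehicle library per genotype and fraction, and its spread is taken from the HHT groups.

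Heavy polysomes held more of most of these mRNAs than medium ones in vehicle slices. Between heavy and medium, 7 of 8 rose (54.0% of all genes were called, 25.9% of all genes as higher), by a median of 1.25 against -0.08 over all genes. Supt6 rose by 2.14 ± 0.19 (adjusted p = 2.12e-06) and stood at percentile 99.8 of all genes. Setd2 rose by 1.58 ± 0.19, Nsd1 by 1.40 ± 0.15, Iws1 by 1.26 ± 0.15, Ash1l by 1.23 ± 0.23, Psip1 by 0.91 ± 0.16 and Whsc1 by 0.52 ± 0.14. The call for Whsc1 was lost with total counts (0.18, adjusted p = 0.275) and in 2 of 3 limma settings. Whsc1l1 stood at 0.09 ± 0.13 (adjusted p = 0.596), with 87.4 and 95.9 CPM in medium beside 90.8 and 105 in heavy.

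Between heavy and input, 5 of 8 rose in vehicle slices (46.5% of all genes called, 24.8% higher), namely Supt6 (1.10 ± 0.18), Iws1 (0.93 ± 0.14), Nsd1 (0.67 ± 0.15), Psip1 (0.55 ± 0.16) and Setd2 (0.49 ± 0.18, adjusted p = 0.0366). Ash1l stood at 0.00 ± 0.22. Scaling to total counts in place of TMM moved the median of all genes by -0.39 in this ratio, and 2 of the 8 genes then passed. Setd2 (0.10, adjusted p = 0.648), Nsd1 (0.28, adjusted p = 0.115) and Psip1 (0.16, adjusted p = 0.437) did not. These genes also missed the threshold in each limma setting and in WT libraries alone. Of all genes called, 53.4% were higher in heavy than in input with TMM and 25.3% with total counts. The corresponding shares were 48.0% and 31.4% for heavy over medium and 51.8% and 40.5% for medium over input, so calls between fractions are relative to the typical gene of each fraction.

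HHT against vehicle asks what happens to these mRNAs once new ribosomes no longer leave the start codon. In input, 0 of the 8 genes passed, beside 12.4% of all genes called (1702 higher and 30 lower with TMM, 1386 and 230 with total counts). Their median change was -0.17, against -0.002 over all genes, and only 1 of the 8 was above 0. Among all genes 3011 had an unadjusted p under 0.05, Nsd1 among them at 0.0298. Fitted input changes ran from -0.38 ± 0.19 for Ash1l to 0.02 ± 0.12 for Iws1. Setd2 held 50.6 and 50.9 CPM in the WT HHT input libraries and 60.3 and 43.1 in KO, which overlapped the vehicle libraries. Ash1l held 89.5 and 73.5 CPM in WT HHT input and 57.7 in KO HHT replicate 2, while KO HHT replicate 1 lay at a log2 difference of -0.03 from the KO vehicle library. For Ash1l, and also for Nsd1 and Whsc1, all 4 HHT libraries lay below the vehicle libraries, as for 11.3% of all genes. Without KO HHT replicate 1 Ash1l passed at -0.64 (adjusted p = 0.0354). In HHT replicate 2 alone, Ash1l (-0.71, adjusted p = 0.0032) and Nsd1 (-0.48, adjusted p = 0.00442) passed.

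In medium polysomes all 8 genes rose after HHT. Of all genes 47.0% were called in either direction and 25.4% were higher. By encoded protein length, the higher share was 31.7% from 500 residues, 47.0% from 1000, 54.0% from 1500 and 58.7% from 2000 on. The 8 genes fall in these longer classes. The 4 HHT libraries lay above both vehicle libraries for each of the 8 genes, as they did for 33.9% of all genes. The median change was 0.48, against 0.03 over all genes.

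Supt6 rose by 1.39 ± 0.17 in medium (adjusted p = 9.56e-05), from 144 (WT) and 170.5 (KO) CPM in vehicle to 446 and 378 in WT HHT and 435 and 379.5 in KO HHT libraries. Both genotypes lay at a similar height after HHT. Setd2 rose by 0.77 ± 0.17 (adjusted p = 0.00203), from 27.3 and 29.9 CPM to 59.0 and 58.8 in WT HHT and 42.7 and 38.1 in KO HHT. Its WT HHT libraries were higher than its KO HHT libraries. Ash1l rose by 0.74 ± 0.20 (adjusted p = 0.0089), from 45.7 and 43.4 CPM to 103 and 82.6 in WT HHT and 66.0 and 53.8 in KO HHT, in the same order. Nsd1, the writer altered in Sotos syndrome, rose by 0.55 ± 0.13 (adjusted p = 0.00396), from 87.4 CPM in either vehicle library to 137 and 116 in WT HHT and 136 and 124 in KO HHT. The genotypes overlapped for Nsd1.

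The other 4 genes moved less in medium. Psip1 rose by 0.40 ± 0.14 (adjusted p = 0.0276), Iws1 by 0.38 ± 0.13 (adjusted p = 0.0257), Whsc1 by 0.32 ± 0.12 (adjusted p = 0.0357) and Whsc1l1 by 0.32 ± 0.12 (adjusted p = 0.0349). Each of their calls was lost when certain HHT lysates were left out singly. Setd2, Nsd1, Ash1l and Supt6 passed whichever HHT lysate was left out. Whsc1 missed the threshold without any of the 4 lysates (adjusted p = 0.0883 without WT HHT replicate 1, 0.0737 without WT HHT replicate 2, 0.101 without KO HHT replicate 1 and 0.06 without KO HHT replicate 2). Whsc1l1 missed it without WT HHT replicate 1 (0.127), KO HHT replicate 1 (0.0828) and KO HHT replicate 2 (0.0665). Iws1 missed it without WT HHT replicate 1 (0.0501), WT HHT replicate 2 (0.0866) and KO HHT replicate 1 (0.127). Psip1 missed it without WT HHT replicate 2 (0.0533), KO HHT replicate 1 (0.0584) and KO HHT replicate 2 (0.067). In HHT replicate 2 alone Whsc1, Whsc1l1 and Iws1 did not pass, and with total counts none of these 4 did.

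In heavy polysomes the 8 genes split. Ash1l and Nsd1 rose and Iws1 and Psip1 fell, 4 of 8, beside 51.8% of all genes called (27.1% higher and 24.7% lower). Ash1l rose by 1.22 ± 0.20 (adjusted p = 0.000202), from 92.3 (WT) and 118 (KO) CPM in vehicle to 216 and 264 in WT HHT and 252 and 240.5 in KO HHT, without overlap (35.2% of all genes lay above in this way). Psip1 fell by 1.27 ± 0.13 (adjusted p = 8.42e-06), from 250.1 and 246 CPM to 94.7 and 108 in WT HHT and 114 and 92.9 in KO HHT. Iws1 fell by 1.13 ± 0.12 (adjusted p = 1.03e-05), from 48.7 and 45.7 CPM to 21.3 and 21.3 in WT HHT and 21.5 and 22.3 in KO HHT. For both, every HHT library lay below both vehicle libraries, as for 32.9% of all genes.

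Nsd1 rose by 0.33 ± 0.13 in heavy (adjusted p = 0.0481), from 208 and 256 CPM to 267 and 287 in WT HHT and 298 and 305 in KO HHT. That call was lost without each of the 4 HHT lysates in turn (adjusted p = 0.062 and 0.105 without WT HHT replicates 1 and 2, 0.0701 and 0.0791 without KO HHT replicates 1 and 2). Setd2 held 85.8 and 111 CPM in WT HHT heavy and 94.0 and 113 in KO HHT heavy, a change of 0.24 ± 0.15 (adjusted p = 0.213), and these libraries overlapped the vehicle ones. The changes of Whsc1l1 (0.20 ± 0.12), Whsc1 (0.11 ± 0.12) and Supt6 (-0.06 ± 0.15) did not pass either.

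**Figure D2:**
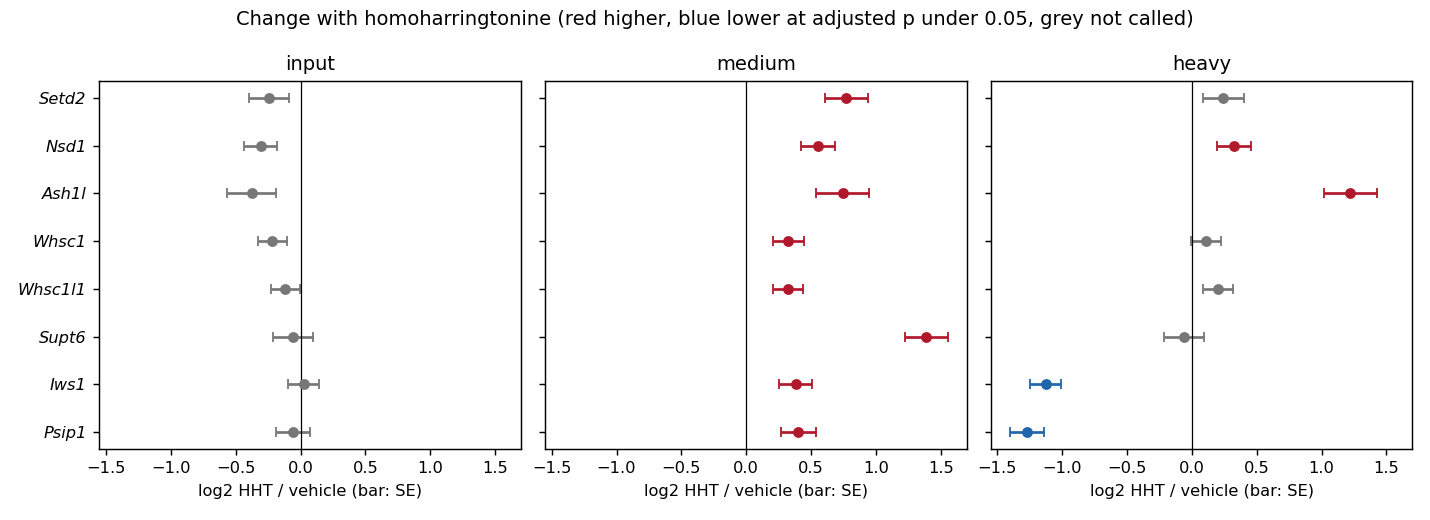
Log2 change with HHT against vehicle (horizontal axis, mean over genotypes) in input, medium and heavy; points are fitted values from 18 libraries, bars are SE, red marks genes called higher, blue genes called lower and grey genes not called. All 8 genes are called higher in medium, none is called in input, and in heavy Ash1l and Nsd1 are called higher and Iws1 and Psip1 lower.

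Summed markers of several cell types, neurons included, differed between HHT and vehicle. Over 8 measured astrocyte markers the summed level was 2908 to 3345 CPM in HHT input against 1810 to 2163 in vehicle input, and 3265 to 3734 against 1455 to 1919 in medium. Over 8 microglial markers it was 161 to 191 against 75.4 to 108 in input and 88.2 to 118 against 66.4 to 72.6 in medium, and over 8 vessel markers 55.8 to 69.3 against 28.3 to 30.0 in input and 43.4 to 58.2 against 29.0 to 30.3 in medium. Over 8 oligodendrocyte markers it was 3830 to 4436 against 3227 to 3467 in input and 3608 to 4395 against 3317 to 3360 in medium. Over 10 neuronal markers it was 13460 to 15040 against 12830 to 13630 in input and 16370 to 16920 against 14230 to 14860 in medium. Over 10 markers of choroid plexus, thalamus and striatum it was 396 to 541 against 278 to 337 in input and 419.8 to 535 against 373 to 408 in medium. In medium the HHT libraries thus lay above the vehicle libraries for each of these 6 lists. In heavy, neuronal markers were lower after HHT, at 13860 to 15360 against 16780 to 17140. Heavy oligodendrocyte markers were higher, at 3642 to 4131 against 3278 to 3325, as were vessel markers, at 39.5 to 51.5 against 24.9 to 27.5. Heavy astrocyte markers overlapped narrowly, at 2788 to 3940 against 2743 to 2793, and the other lists overlapped too. None of these markers was at 0 in any library, and 2 of 5 blood markers were measured. Their part in the changes of the 8 genes was not tested.

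The ratio of fractions within a lysate shows the same libraries another way, so its HHT shift shares libraries with the comparisons above. The log2 medium to input ratio of Setd2 was -1.19 in WT and -0.98 in KO vehicle lysates, 0.22 and 0.21 in the WT HHT lysates and -0.50 and -0.18 in the KO HHT lysates. All 4 HHT lysates lay above both vehicle lysates. The share of all genes in that order was not counted for this ratio, and for the medium level itself it was 33.9%. The ratio of Supt6 was -1.17 and -0.92 in vehicle, 0.34 and 0.56 in WT HHT and 0.31 and 0.43 in KO HHT lysates, so it changed side of 0 in both genotypes. That of Ash1l was -1.22 and -1.23 in vehicle, 0.20 and 0.17 in WT HHT and -0.60 and -0.10 in KO HHT lysates.

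With HHT the medium to input ratio rose for 5 of the 8 genes, beside 17.3% of all genes called, 7.09% higher and 10.2% lower. The rises were 1.44 ± 0.22 for Supt6, 1.12 ± 0.28 for Ash1l, 1.01 ± 0.22 for Setd2, 0.86 ± 0.18 for Nsd1 and 0.54 ± 0.16 for Whsc1, with adjusted p from 0.00317 to 0.0362. Supt6 stood at percentile 99.6 of all genes, Ash1l at 98.4 and Setd2 at 97.5. The shift of Psip1 was 0.46 ± 0.19, that of Whsc1l1 0.44 ± 0.16 and that of Iws1 0.36 ± 0.18. With the lysate as a block Psip1 (adjusted p = 0.0373) and Whsc1l1 (adjusted p = 0.0442) passed as well, giving 7. The call for Whsc1 was lost without WT HHT replicate 1 (0.0849), WT HHT replicate 2 (0.103) or KO HHT replicate 2 (0.133). In WT libraries alone 2 of the 8 passed, Supt6 and Setd2, and in KO libraries alone 0. In KO libraries the shift was 1.28 for Supt6 and 0.62 for Setd2. Fewer genes of any kind were called in KO libraries alone, as HHT in medium gave 2655 calls there and 5275 in WT. The 2 counts therefore do not compare the genotypes.

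The heavy to input ratio rose with HHT for Ash1l (1.60 ± 0.27, adjusted p = 0.00108) and Nsd1 (0.63 ± 0.18, adjusted p = 0.0186) and fell for Psip1 (by 1.21 ± 0.19, adjusted p = 0.000655) and Iws1 (by 1.15 ± 0.17, adjusted p = 0.000513), with 28.9% of all genes called. Psip1 changed side of 0, from log2 ratios of 0.52 and 0.57 in the WT and KO vehicle lysates to -0.70 and -0.88 in WT HHT and -0.48 and -0.61 in KO HHT lysates. The ratio of Iws1 went from 0.97 and 0.90 to -0.31 and -0.39 in WT HHT and -0.12 and -0.06 in KO HHT lysates. Both genes therefore lay above input in heavy vehicle libraries and below it after HHT in every lysate. How many of all genes did so was not counted. In the heavy level itself, 32.9% of all genes lay below both vehicle libraries in every HHT library. Nsd1 missed the threshold without WT HHT replicate 2 (0.0655) or KO HHT replicate 2 (0.073). The shift of Setd2 was 0.49 ± 0.22 (adjusted p = 0.112), and it passed without KO HHT replicate 1 (0.70, adjusted p = 0.0353). With total counts 7 of the 8 passed. Of all genes called, 43.6% were higher with TMM and 60.4% with total counts.

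The heavy to medium ratio fell with HHT for Psip1 (by 1.68 ± 0.19), Iws1 (by 1.51 ± 0.18) and Supt6 (by 1.45 ± 0.22), 3 of 8, beside 36.5% of all genes called, and the median over all genes was 0.12. For Supt6 the log2 ratio went from 2.1 and 2.2 in vehicle to 0.47 and 0.87 in WT HHT and 0.47 and 0.97 in KO HHT lysates. Its heavy level overlapped between treatments, and its medium level was the one that rose. The writers ran from -0.53 ± 0.22 for Setd2 to 0.48 ± 0.28 for Ash1l, none called, and Setd2 passed without KO HHT replicate 2 (-0.64, adjusted p = 0.0479). Of all genes called, 49.6% were higher with TMM and 62.7% with total counts.

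**Figure D3:**
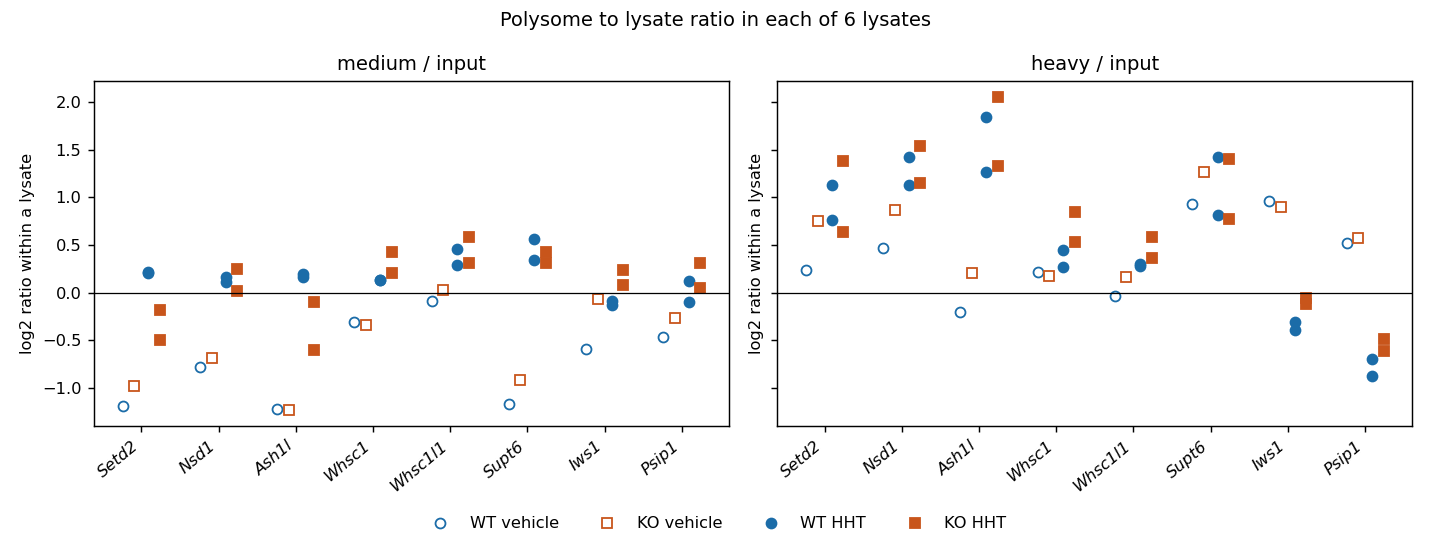
Log2 ratio of medium to input (left) and heavy to input (right) within each of 6 lysates (vertical axes); open symbols are vehicle, filled symbols HHT, circles WT and squares KO. In the left panel the KO HHT lysates of Setd2 and Ash1l lie below 0 and the WT HHT lysates above 0; in the right panel Iws1 and Psip1 pass from above 0 in vehicle to below 0 in HHT.

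After HHT the fractions still differed. Heavy over input was higher for 6 of the 8 genes (Ash1l 1.60 ± 0.16, Nsd1 1.30 ± 0.11, Supt6 1.10 ± 0.13, Setd2 0.98 ± 0.13, Whsc1 0.52 ± 0.09 and Whsc1l1 0.38 ± 0.09) and lower for Psip1 (-0.67 ± 0.11), beside 58.0% of all genes called, and Iws1 stood at -0.22 ± 0.10 (adjusted p = 0.0829). With total counts Whsc1l1 was not called (0.14, adjusted p = 0.212) and Iws1 was called lower (-0.46, adjusted p = 0.00206). Ash1l was at percentile 99.3 and Nsd1 at 98.1 of all genes. Heavy over medium was higher for 5, led by Ash1l (1.71 ± 0.16), Nsd1 (1.17 ± 0.11) and Setd2 (1.05 ± 0.13), and lower for Psip1 (-0.76 ± 0.11), beside 35.8% of all genes (19.0% higher), and with total counts Iws1 was also lower there (-0.43, adjusted p = 0.00569). The call for Whsc1 there (0.30 ± 0.09) was lost with total counts (0.12, adjusted p = 0.326), without WT HHT replicates 1 (0.0573) or 2 (0.19) and without KO HHT replicates 1 (0.0711) or 2 (0.139).

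Medium over input after HHT was higher for Whsc1l1 (0.41 ± 0.09, adjusted p = 0.00546) and Supt6 (0.40 ± 0.13, adjusted p = 0.0285), 2 of 8 beside 30.4% of all genes. Whsc1l1 missed the threshold without WT HHT replicate 1 (0.0532) or KO HHT replicate 2 (0.0955), and Supt6 without WT HHT replicate 2 (0.128) or KO HHT replicate 2 (0.141). Setd2 (-0.07 ± 0.13) and Ash1l (-0.11 ± 0.16), called lower in vehicle, were not called here. Of all genes called after HHT, the higher share with TMM and with total counts was 44.0% and 33.2% for medium over input, 47.6% and 28.1% for heavy over input and 52.9% and 27.5% for heavy over medium.

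KO against WT asks whether these mRNAs depend on FMRP, and was tested under HHT. In input, medium and heavy 0 of the 8 genes passed, beside 0.0% of all genes in each, with 679, 387 and 412 genes at an unadjusted p under 0.05, and DESeq2 called 4, 2 and 1 genes. Setd2 in medium held 59.0 and 58.8 CPM in WT HHT and 42.7 and 38.1 in KO HHT libraries, a difference of -0.54 ± 0.18 (95% interval -0.93 to -0.16, unadjusted p = 0.00935, adjusted p = 0.999). Ash1l in medium held 103 and 82.6 against 66.0 and 53.8 CPM, a difference of -0.63 ± 0.22 (95% interval -1.11 to -0.15, unadjusted p = 0.0145, adjusted p = 0.999). For both genes each KO library lay below each WT library, as for 18.2% of all genes, and among all genes their differences stood at percentiles 1.8 and 1.1. Whsc1 also lay lower in both KO libraries, at -0.05 ± 0.13, and the other 5 genes overlapped.

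The HHT change of Setd2 in medium was 1.11 in WT (adjusted p = 0.0037) and 0.43 in KO libraries (adjusted p = 0.206). The test of that difference gave -0.67 ± 0.32 (95% interval -1.37 to 0.03, adjusted p = 0.999). For Ash1l the changes were 1.02 and 0.47, and their difference -0.55 ± 0.40 (adjusted p = 0.999). For Supt6 they were 1.52 and 1.26, both called. The KO effect on the medium to input ratio under HHT was -0.57 ± 0.25 for Setd2 and -0.58 ± 0.32 for Ash1l (adjusted p = 1 for both). None of the 8 genes passed in any test of genotype by HHT (0.0% of all genes in each fraction, with 214, 187 and 104 at unadjusted p under 0.05 in input, medium and in heavy), or of the KO effect on the medium to input (0.0%, 259 genes unadjusted), heavy to input (0.00716%) or heavy to medium ratio (0.0%, 204 genes unadjusted).

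In heavy polysomes the KO to WT differences under HHT ran from 0.03 ± 0.16 for Psip1 to 0.15 ± 0.13 for Whsc1l1, and that of Setd2 was 0.07 ± 0.17 (95% interval -0.31 to 0.44). In input they ran from -0.23 ± 0.13 for Whsc1 to 0.06 ± 0.15 for Nsd1, and that of Setd2 was 0.03 ± 0.18. In vehicle, with 1 library a side and no test, the log2 KO to WT value of Setd2 was -0.09 in input, 0.13 in medium and 0.42 in heavy. Of the 8 genes, the widest vehicle value was 0.51 for Iws1 in medium, with 23.4 CPM in KO and 16.5 in WT. Across all genes the median size of that value was 0.14, 0.18 and 0.16.

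In the medium HHT libraries, where Setd2 and Ash1l were lower in KO, 5 of 7 marker lists also differed between genotypes without overlap. Among single genes, 17.2% lay above and 18.2% below WT without overlap in these KO libraries. The 8 oligodendrocyte markers summed to 4103 to 4395 CPM in WT and 3608 to 3860 in KO, and the 10 markers of choroid plexus, thalamus and striatum to 520.0 to 535 and 419.8 to 443. The 8 microglial markers summed to 88.2 to 106 in WT and 112 to 118 in KO, and the 2 blood markers to 1.41 to 1.97 and 4.26 to 6.11. Neuronal markers summed to 16370 to 16410 in WT and 16540 to 16920 in KO. Astrocyte sums overlapped (3265 to 3734 and 3487 to 3501), as did vessel sums (48.3 to 58.2 and 43.4 to 49.6). Their part in the values of Setd2 and Ash1l was not tested.

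The encoded proteins differ in length, and HHT changes varied with coding length across the 13487 genes with a GENCODE coding sequence. ASH1L has 2958 residues, NSD1 2691, SETD2 2537, SPT6 1726, NSD3 1446, NSD2 1366, IWS1 766 and PSIP1 528. In medium the median HHT change rose over length classes, from -0.42 under 250 residues to 0.17 from 500, 0.40 from 1000, 0.50 from 1500 and 0.58 from 2000 residues on. Setd2, Ash1l and Nsd1 lay near the median of the 358 longest, at percentiles 65.9, 63.1 and 47.5 of that class. Supt6 lay at percentile 90.6 of the 404 genes of its class. Psip1 lay at 65.8, Iws1 at 64.6, Whsc1 at 43.4 and Whsc1l1 at 42.9 of theirs.

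In heavy the class medians were -0.18 from 500 to under 1000 residues and 0.54 from 2000 on. Ash1l lay at percentile 79.3 of the longest class, Nsd1 at 34.6 and Setd2 at 29.1. Psip1 lay at percentile 4.5 and Iws1 at 7.4 of the 4361 genes from 500 to under 1000 residues. In the medium KO to WT difference under HHT the longest class had a median of -0.08, and Setd2 lay at percentile 5.0 and Ash1l at 2.5 of it. In vehicle medium over input the longest class had a median of -0.60, and Setd2 lay at percentile 18.4 and Ash1l at 14.5.

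**Figure D4:**
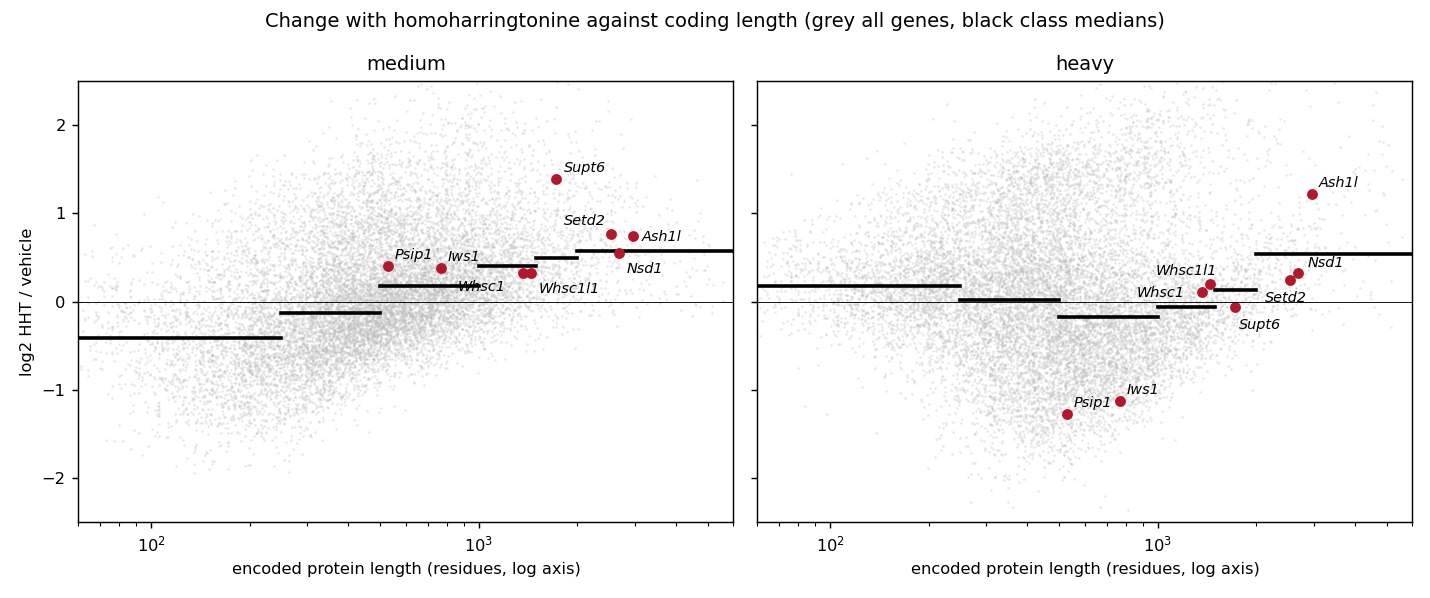
Log2 change with HHT against vehicle in medium (left) and heavy (right) against the length of the encoded protein in residues (log axis); grey points are genes with a coding length that fall within the axes, black bars the medians of 6 length classes and red points the 8 genes. In medium the class medians rise with length and Supt6 lies well above its class; in heavy Psip1 and Iws1 lie well below theirs.

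Over the 12 group means, the genes whose log2 CPM followed Setd2 most closely were Zbtb38 (Pearson r = 0.992), Ckap5 (0.991), Gpatch8 (0.984), Dock10 (0.983) and Rapgef6 (0.982), among 10787 genes ranked. Of the other members, Nsd1 (0.949, rank 139), Supt6 (0.93), Ash1l (0.925) and Whsc1 (0.88) came close to that pattern. Iws1 (0.451), Whsc1l1 (0.423) and Psip1 (0.076) did not, while Iws1 and Psip1 followed each other at 0.852. These values are descriptions, since the means share lysates and fractions.

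Related gene lists place the 8 genes among the rest of the pathway. Their counts are to be read against all genes, of which 25.4% rose and 21.5% fell in medium and 27.1% rose and 24.7% fell in heavy. Of 7 measured genes listed as H3K36 demethylases, 3 rose in medium after HHT and 0 fell. The 3 were Kdm4b (0.99 ± 0.14), Kdm4a (0.81 ± 0.13) and Kdm2a (0.58 ± 0.11). In heavy 0 rose and 4 fell, Kdm8 by 1.04 ± 0.24 and Kdm4a by 0.70 ± 0.12 among them. The median of the 7 was 0.40 in medium and -0.33 in heavy, against 0.03 and 0.06 over all genes. Of 20 other proteins that bind methylated H3K36 or carry a PWWP or related domain, 3 rose and 3 fell in medium (25.4% and 21.5% of all genes), with Msh6, a mismatch repair protein, rising by 0.62 ± 0.18 and Morf4l1 falling by 0.74 ± 0.12. In heavy 3 of them rose and 6 fell (27.1% and 24.7% of all genes). Hdgfrp2, a PWWP protein related to Psip1, fell by 1.53 ± 0.13 there, and Mbd5 rose by 1.00 ± 0.17.

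Among 22 genes listed with RNA polymerase II elongation, Setd1a and Setd1b included, 8 rose and 5 fell in medium, beside 25.4% and 21.5% of all genes. Polr2a, the largest polymerase subunit, rose by 1.93 ± 0.17 and Ctr9, of the PAF complex, by 1.40 ± 0.17, while Supt4a fell by 0.93 ± 0.17. In heavy 0 of the 22 rose and 14 fell, beside 27.1% and 24.7% of all genes, among them Supt5 (by 1.19 ± 0.11), Paf1 (by 1.53 ± 0.14), Ssrp1 (by 1.08 ± 0.11) and Leo1 (by 1.45 ± 0.16), with a list median of -0.38. In input Cdk13, a polymerase kinase, fell by 0.41 ± 0.12 (adjusted p = 0.0426) and the other 21 were not called.

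Of 23 other genes listed as histone lysine methyltransferases, 4 rose and 1 fell in medium, beside 25.4% and 21.5% of all genes. Their median was 0.10. The list goes by gene family, and activity on histones was not checked for each member. Kmt2e rose by 0.68 ± 0.16 and Kmt2b by 0.58 ± 0.14, and Setd3 fell by 0.58 ± 0.13. In heavy 6 rose and 8 fell, beside 27.1% and 24.7%, with Kmt2a (1.47 ± 0.22) and Kmt2c (1.21 ± 0.17), H3K4 methyltransferases, rising and Smyd3 (by 1.09 ± 0.14) and Ehmt2 (by 0.56 ± 0.10) falling. None of the 72 genes of these 4 lists was called between KO and WT under HHT in medium.

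**Figure D5:**
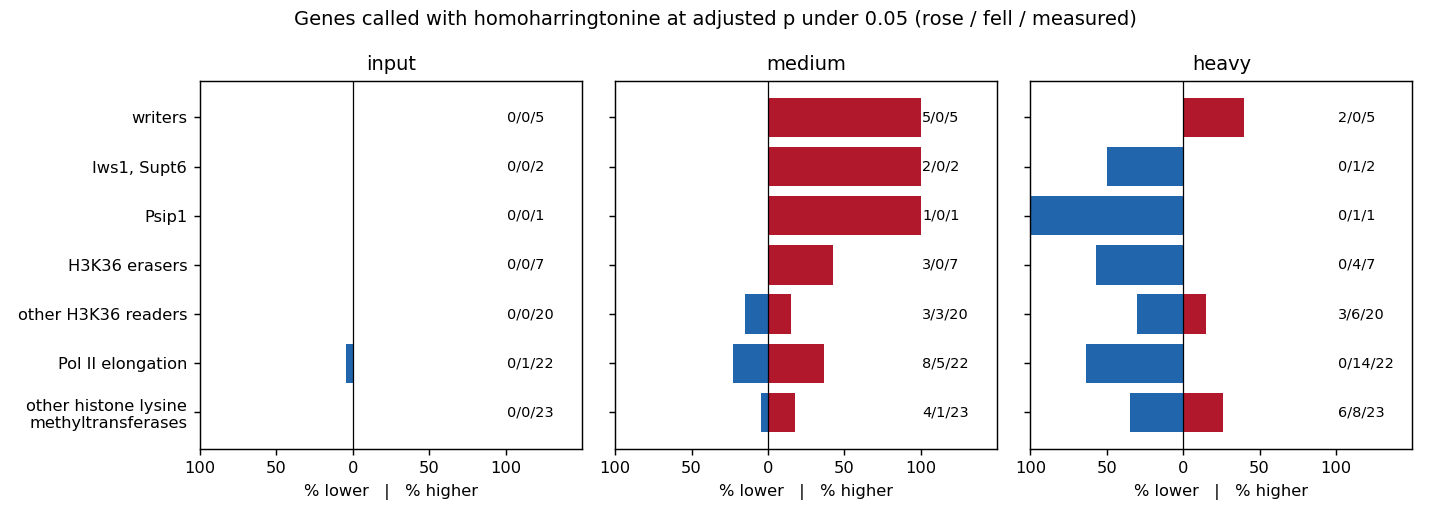
Share of each list called higher (red, right of 0) or lower (blue, left of 0) with HHT against vehicle in input, medium and heavy, in percent of the measured genes; the figures beside each bar give the number that rose, fell and were measured. In medium all 5 writers are called higher, and in heavy 14 of the 22 genes listed with polymerase II elongation are called lower.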

How the data were processed

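Total RNA of 18 libraries was measured by RNA-seq. Per the labels' protocols, tissue was homogenised without detergent, spun at 2000 g and 10000 g, given 1% NP-40 and run on 15 to 45% sucrose gradients, and pools were chosen by FMRP immunoblot. Per the submitters' processing notes, the tools were RSEM 1.2.11, Bowtie2 2.1.0, Trimmomatic 0.32 and DESeq2 1.16.1 and the build mm10, with no role or order. The deposited estimated counts (0 of 251514 values whole within 1e-06) were rounded to whole numbers. The second deposited table holds a score that the authors call TPM, and 10 of 18 of its columns sum to more than TPM can. It therefore served for levels between genes, and tests on it were limited to the limma alternatives. The sources used here do not state whether batches were adjusted.

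The test was the quasi-likelihood F-test of edgeR 4.0.16 under R 4.3.3 (TMM, 12 group means, 6 residual degrees of freedom, prior 7.36), adjusted by Benjamini-Hochberg within each of 21 comparisons, 2-sided, at 0.05. The low-count filter kept all 13973 genes, SE is the log2 change divided by the square root of F, and the procedure was tested on simulated data. Vehicle groups of 1 library are assumed to vary like the HHT groups. Replicates pool different mice, but p-values may still understate the spread. Input, medium and heavy of 1 replicate share a lysate, hence the same animals. Their deviations correlated at r = 0.0142 to 0.349 across genes.

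All 8 genes were named in every comparison, with up to 4 genes per related list by smallest adjusted p and 5 genes most correlated with Setd2 (mean of at least 5 CPM, prior count 2). The members, lists and tests were chosen with earlier results of these data known. Alternatives were DESeq2 1.42.0, total counts or RLE factors, omission of the filter or of each HHT lysate, limma 3.58.1 on log2(rescaled TPM + 1) or + 0.5 or with a mean of at least 5, each fraction alone, each genotype alone, HHT replicate 1 or 2 alone, and replicate or lysate blocks. Coding lengths came from GENCODE M21 in place of the planned protein table (13487 of 13973 genes, 96.5%).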

Additional observations from a re-analysis of the deposited data

Results flagged for a closer look

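Values that differ between the genotypes in direction are listed here, each with the test of the difference and with the share of all genes that show the same pattern. The log2 medium to input ratio of Setd2 under HHT lay above 0 in both WT and below 0 in both KO lysates, with KO minus WT at -0.5525, and that of Ash1l did the same at -0.5348. This pattern was shared by 3.01% of all genes, and the tested KO effects (-0.57 ± 0.25 and -0.58 ± 0.32) had an adjusted p of 1 by edgeR. The same ratio of Iws1 lay below 0 in both WT and above 0 in both KO lysates, with KO minus WT at 0.2715 (2.38% of all genes; tested effect 0.27 ± 0.20, adjusted p = 1).

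In input, Iws1 lay above vehicle in both WT HHT libraries and below it in both KO HHT libraries, a difference of -0.1926 in log2 CPM (3.58% of all genes; tested genotype by HHT term -0.19 ± 0.24, adjusted p = 1). In heavy, Supt6 did likewise, with a difference of -0.2981, as for 2.95% of all genes (tested term -0.29 ± 0.31, adjusted p = 1). Its WT HHT replicate 1 lay above vehicle by only 0.007. The HHT libraries of WT and KO overlapped there, while the single vehicle libraries held 616.5 (WT) and 775 (KO) CPM. None of these differences passed.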

How the results depend on the processing

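Each of the 8 genes was recomputed under the alternatives in all 21 comparisons, 2304 values in all. Of these, 2165 kept their side of the threshold, 99 lost and 40 gained a call, 0 called values changed sign and 146 values not called did. The number of the 8 genes called with HHT in medium was 8, and it was 5 with DESeq2, 4 with total counts, 5 in WT libraries alone, 2 in KO libraries alone, 5 in HHT replicate 2 alone and 4 to 5 with each lysate left out. In input it was 0, with 1 under total counts, 2 in HHT replicate 2 alone and 0 to 1 with each lysate left out. For medium over input in HHT it was 2, with 0 in WT and 1 in KO libraries alone and 0 to 2 with each lysate left out. For medium over input in vehicle it was 4, with 0 in KO libraries alone. For heavy over input in vehicle it was 5, with 2 under total counts, under each of the 3 limma settings and in WT libraries alone. For the HHT shift of medium over input it was 5, with 2 in WT and 0 in KO libraries alone, and for the shift of heavy over input it was 4, with 7 under total counts and each limma setting. Genotypes alone rest on fewer libraries. Over all genes, HHT in medium gave 5275 calls in WT and 2655 in KO libraries alone, against 6562 in the main fit. Counts of the 8 genes in 1 genotype therefore do not compare WT with KO. Total counts moved the median of all genes by -0.39 to 0.15. The cause of the other changes was not tested.

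The sources used here do not state a link between same-numbered WT and KO lysates. There are 2 pairs. Their deviations correlated at r = 0.323, 0.165 and 0.00332 in input, medium and heavy. With the replicate number as a block, the 4 medium HHT libraries gave 2 calls among the 8 genes, Setd2 (-0.55, adjusted p = 8.4e-05) and Ash1l (-0.63, adjusted p = 2.9e-08), against 0 without it, and 306 against 2 of all genes. That fit has 1 residual degree of freedom. In input and heavy the block gave 0 of the 8. The lysate block changed no other call than those of Psip1 and Whsc1l1 given above.

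Over all genes, counts under the alternatives ran from 0 to 3200 (main 1732) in input, 2655 to 8075 (6562) in medium and 5150 to 8257 (7232) in heavy for HHT against vehicle. They ran from 1261 to 5150 (4245), 5746 to 8535 (8110) and 2391 to 5908 (5002) for medium over input, heavy over input and heavy over medium in HHT. In vehicle the same ratios gave 1 to 3526 (2755), 4064 to 7267 (6493) and 5104 to 8329 (7541), and their HHT shifts 0 to 3237 (2415), 1391 to 5306 (4041) and 1721 to 5847 (5104).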
